A study of Bos taurus with 60 samples.

Results

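Milk synthesis ends when a cow is dried off, and a group of 56 genes and loci was chosen here because their mean expression in mammary tissue lay well under the late-lactation mean on every sampled day of the dry period. Members were 56 of 14714 tested loci, and days (D) are numbered from dry-off. CPM are counts scaled to library size and to a normalization factor for each library. The mean log2 CPM had to be at least 1.5 below that of D-3 on each of D3, D7, D14 and D25. A further 15 loci met the same thresholds and were set aside by name, among them the caseins CSN1S1 and CSN2 and alpha-lactalbumin (LALBA). Poly(A) RNA was sequenced from mammary biopsies of 12 multiparous Holstein cows, each sampled on all 5 days, which gave 60 libraries with 20525083 to 26183990 counts in loci. During the dry period 6 cows were cooled (CL: shade, fans and soakers) and 6 were heat-stressed (HT: shade without fans or soakers, in a separate pen). The treatments ran for the dry period, so D-3 came before them, and each treatment was a single pen, so treatment and pen cannot be told apart.

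In lactation, mammary secretory cells make milk protein and lactose, and bud off fat droplets wrapped in apical membrane. Butyrophilin, mucins and fatty acid-binding protein belong to this fat globule machinery, and calcium pumps of the secretory pathway load calcium for casein micelles. Once milk removal stops, the secretory program is switched off, alveoli regress, and the gland later rebuilds for the next calving.

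Of the genes listed for these roles and matched to loci, members were 3 of the fat globule and 1 of calcium and secretion. No matched lactose synthesis gene was a member, and the 3 matched milk protein genes were set aside by name. A symbol was paired with 35 of the 56, 13 more carried an ENSEMBL gene without a symbol, and 8 were assembled loci without an ENSEMBL gene. Of the symbols, 32 were found in RefSeq's cattle annotation (assembly ARS-UCD2.0), all of them protein-coding. The symbols came from a list of genes ordered by their change over time and held only in part, so genes that changed were more likely to have one. Some members lay close together. HSTN, which encodes the milk peptide histatherin, sits directly beside CSN2 in the RefSeq order, with 1 annotated gene between it and CSN1S1. The genes PTHLH and MANSC4 carried consecutive locus numbers, and 2 annotated genes lay between them. PKD2L1 was followed by a locus described as an acyl-CoA desaturase, and in RefSeq 1 gene separates PKD2L1 from the desaturase gene SCD. SCD was counted at another locus and set aside by name. Whether the desaturase member is part of SCD was not examined.

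The height at D-3 was carried by 5 of the 12 cows. The mean log2 CPM over the 56 members at D-3 was 7.47 in cow 8564, 7.57 in 7965 and 7.91 in 8647 among the CL cows, and 7.79 in 8541 and 8.20 in 8713 among the HT cows. In the other 7 cows it was 1.49 in 8060, 1.93 in 8603 and 1.99 in 8686 (CL), and 2.48 in 8513, 2.64 in 8314, 3.04 in 8660 and 4.56 in 8668 (HT). No cow lay between 4.56 and 7.47. On the dry days the same quantity ran from -0.30 to 5.28, so the first 5 cows stood above every dry sample and the 7 others did not. The normalization factors at D-3 were 0.3 to 0.419 in the first 5 cows and 1.02 to 1.21 in the 7 others. A lower factor raises the CPM of every locus in its library.

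**Figure D1:**
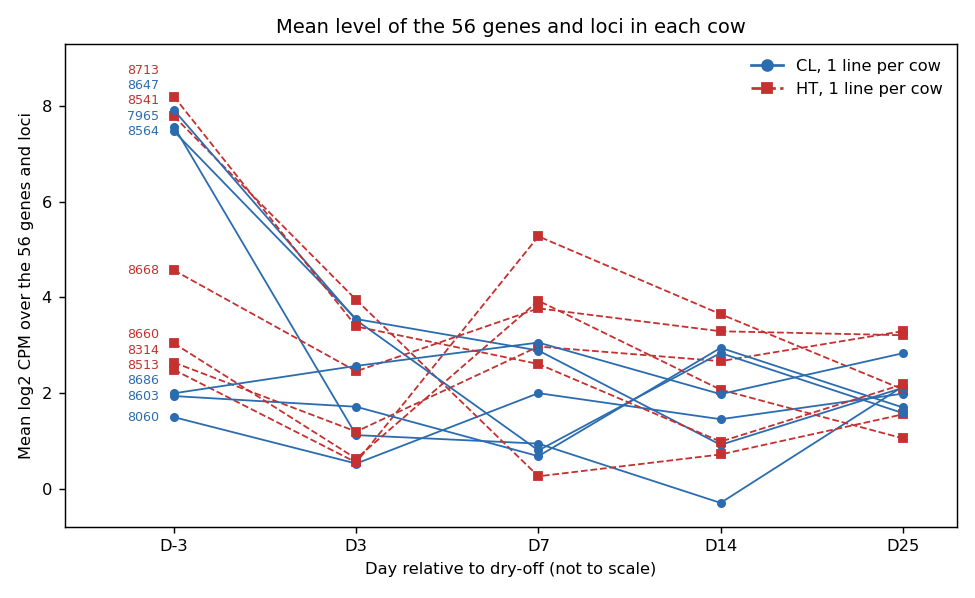
Mean log2 CPM over the 56 genes and loci (vertical axis) in each of the 12 cows on the 5 sampling days (horizontal axis), with 1 line per cow, solid for CL and dashed for HT, and cow numbers beside the D-3 points. At D-3, 5 cows sit between 7.47 and 8.20 and the other 7 between 1.49 and 4.56, and on the dry days all 12 sit between -0.30 and 5.28.

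Counted within a cow, the contrast was as sharp. In each of those 5 cows all 56 members were higher at D-3 than in the 4 dry samples of the same cow, a condition that 25.7% of all loci met in cow 7965, 26.8% in 8564, 28.5% in 8647, 31.9% in 8713 and 32.3% in 8541. The number was 41 of 56 in cow 8668 (all loci 19.0%), 15 in 8603 (38.0%), 8 in 8060 (23.5%), 6 in 8660 (17.0%), 5 in 8314 (15.3%), 1 in 8686 (22.7%) and 0 in 8513 (22.4%). For 52 of the 56 members, the 5 highest of the 12 values at D-3 were those of the same 5 cows (all loci 10.5%). These counts describe the values that chose the members and carry no test.

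**Figure D2:**
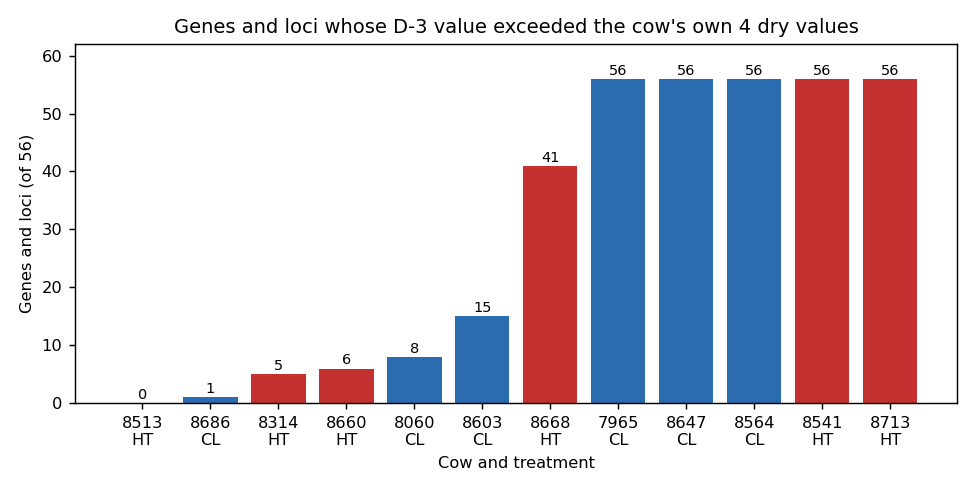
Number of the 56 genes and loci (vertical axis, from 0) whose D-3 value exceeded all 4 dry-period values of the same cow, by cow (horizontal axis), blue for CL and red for HT. The bars reach 56 in 5 cows, 41 in cow 8668 and 0 to 15 in the remaining 6.

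The 3 milk protein genes that could be matched, of 9 listed, divided the cows in the same way. They met the same thresholds and were set aside only by name, so this is not separate support. CSN1S1, CSN2 and LALBA together took 40.2 to 49.8% of all counts at D-3 in the 5 cows, 8.03% in cow 8668 and 0.190 to 1.47% in the other 6. The 56 members took 12.6 to 15.7% in the 5 cows, 2.89% in cow 8668 and 0.241 to 1.26% in the other 6. Luminal epithelial markers, of which 4 of 8 listed genes (KRT7, KRT19, CLDN3 and CLDN4) could be matched to loci, did not divide the cows: their summed CPM at D-3 was 868 to 1491 in CL cows and 978 to 2049 in HT cows, and the 5 cows lay at 1228, 1425, 1245, 1400 and 1265. Matched adipocyte markers, 3 of 8 listed (ADIPOQ, FABP4 and PNPLA2), were at 414 to 641 scaled CPM in the 5 cows and 93.1 to 181 CPM in the 7 others. The endothelial marker KDR, 1 of 6 listed, was 255 to 371 CPM in the 5 cows and 58.9 to 147 CPM in the others. Myoepithelial markers, 4 of 7 listed (KRT5, ACTA2, MYLK and CNN1), overlapped between the sets, at 850 to 1738 CPM in the 5 cows and 446 to 2217 CPM in the others. The fibroblast marker DCN, 1 of 6 listed, was lower in most of the 5 cows: 4 of them lay at 386, 417, 453 and 505 CPM, under the 7 others (513 to 1056 CPM), and cow 7965 was at 873 CPM. The 2 matched skeletal muscle markers of 8 summed to at most 2.59 CPM at D-3, and none of the 8 leukocyte and 4 erythrocyte markers could be matched. The lower normalization factors of the 5 cows at D-3 raise the CPM of every marker in them. Marker levels were not compared without these factors, and the part of tissue make-up in the D-3 levels was not tested. In bulk tissue, fewer secretory cells and less RNA per cell cannot be told apart.

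A description of these genes as silenced by drying off thus matched the values of 5 cows. In 6 of the other 7, most members were not above the cow's own dry values at D-3. Nor were most members absent from dry tissue. Of the 56, 9 had a mean under 1 CPM on every dry day (all loci 4.38%), 21 had a mean of at least 10 CPM on every dry day, and 16 reached 1 CPM in all 48 dry samples. The counts of 21 and 16 were not made over all loci, so they do not compare the members with other loci.

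**Figure D3:**
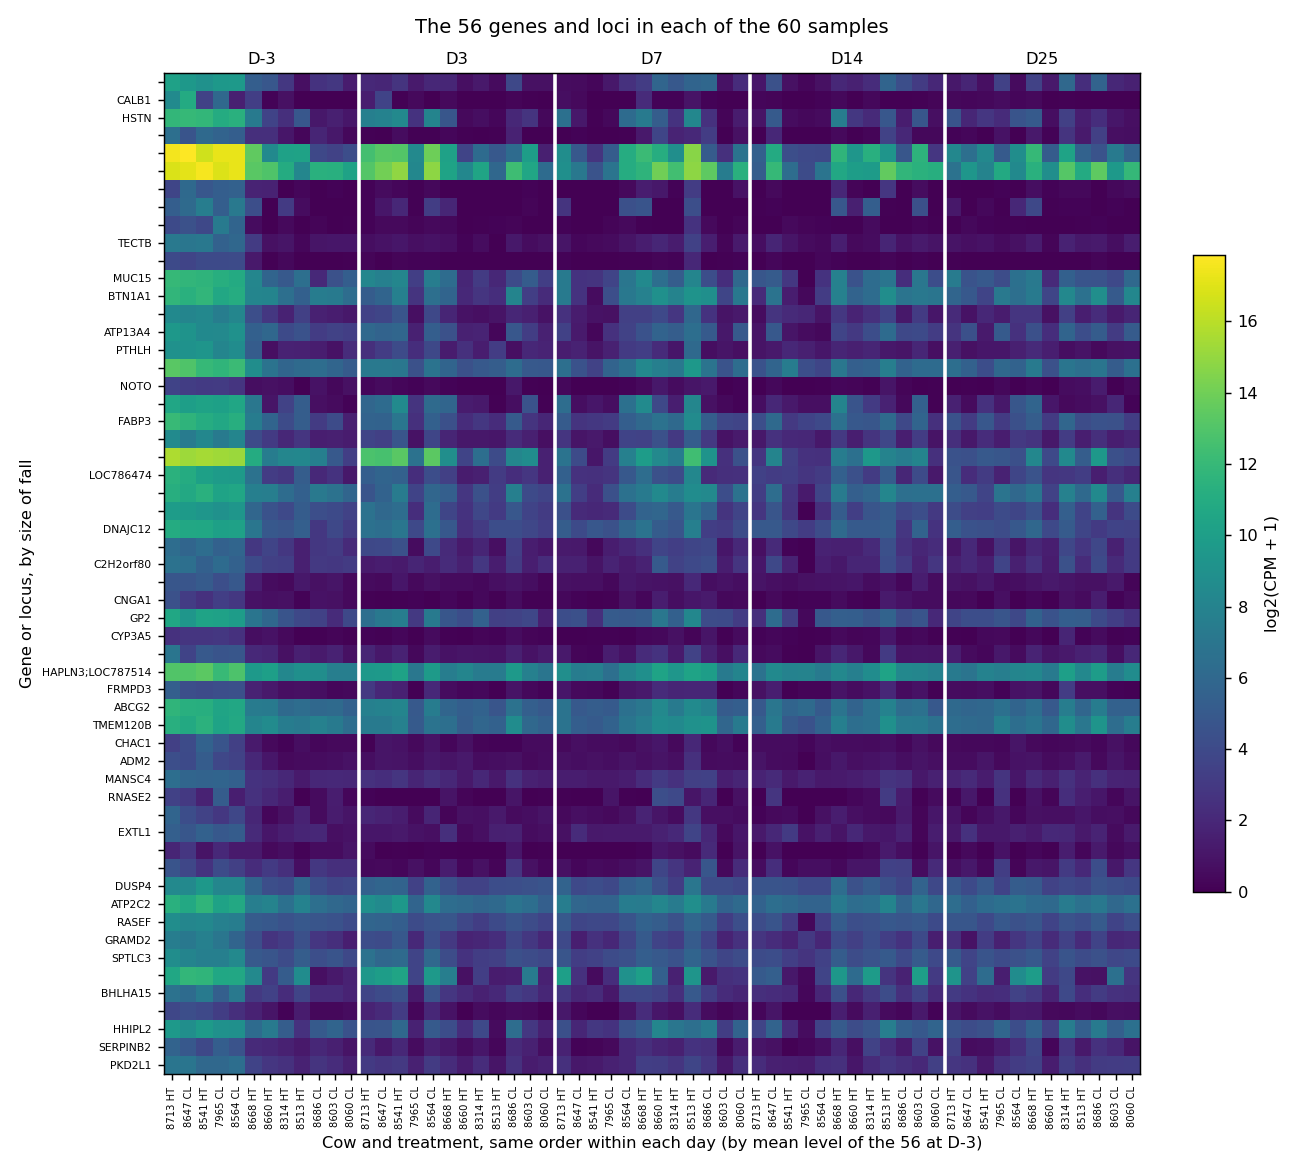
Level of each of the 56 genes and loci (rows, by size of fall, labeled where the text names the gene) in each of the 60 samples (columns, grouped by day, with the cows in the same order on each day), as log2(CPM + 1) in color. The leftmost 5 columns at D-3 are bright in nearly every row, while the other 7 D-3 columns, of which cow 8668 is the brightest, are close to the dry days; a D14 column of cow 7965 is dark and a D7 column of cow 8513 is brighter than its neighbors.

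Among the milk protein and fat globule genes, HSTN had the clearest split. Its CPM at D-3 was 1.07, 1.20, 2.00, 4.40, 11.0, 28.5 and 166 in 7 cows and 1999, 2573, 3589, 3711 and 3907 in the others. On dry days HSTN ran from 0.0655 to 342 CPM with a median of 4.47. The smallest of its 4 day-mean differences from D-3 was 3.22 on the log2 scale, and only the 5 high cows had D-3 above all their dry values.

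MUC15 encodes a mucin of the fat globule membrane. It ranged at D-3 from 3.25 to 3962 CPM (median 191) and on dry days from 0.0480 to 351 CPM (median 28.8). BTN1A1, butyrophilin, is the main membrane protein of the fat globule. It spanned 43.9 to 3507 CPM at D-3 (median 276), against 0.288 to 573 CPM when dry (median 84.2). Its day means on the CPM scale were 61.9 ± 88.3 at D3 and 209 ± 206 at D7 (SD, n = 12).

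FABP3, which binds fatty acids in the cytosol, spanned 1.96 to 4187 CPM at D-3 (median 118), against 2.76 to 389 CPM when dry (median 20.1). Beside it stood LOC786474, described as a patatin-like phospholipase and counted at a locus that joins 2 ENSEMBL genes, so its reads cannot be divided between them. That locus spanned 1.19 to 2755 CPM at D-3 (median 72.0), against 1.31 to 301 CPM when dry (median 7.63). In both, the lowest D-3 value lay under the lowest dry value.

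ATP2C2, ABCG2, TMEM120B and a locus joining HAPLN3 and LOC787514 stayed expressed when dry. High dry levels were part of the rule for naming genes, so these do not stand for secretory and transport members in general. ATP13A4 and the ion channel gene CNGA1 fell to lower dry values, given below. ATP2C2, the secretory pathway calcium ATPase, spanned 54.2 to 3273 CPM at D-3 (median 244), against 42.4 to 741 CPM when dry (median 84.9). ABCG2, which exports vitamins and xenobiotics into milk, ranged from 43.9 to 3297 CPM at D-3 (median 163) and never fell under 25.4 CPM on dry days (median 65.0). TMEM120B, a transmembrane protein, spanned 82.5 to 2844 CPM at D-3, against 21.4 to 596 CPM when dry. A locus joining HAPLN3 and LOC787514, the latter described as lactadherin, had the highest dry levels of the members with a symbol. It spanned 197 to 10562 CPM at D-3, against 93.0 to 1345 CPM when dry, and its reads cannot be divided between the 2 genes.

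ATP13A4, a P-type ATPase, spanned 8.05 to 751 CPM at D-3, against 0.262 to 86.8 CPM when dry. DNAJC12, a co-chaperone of the J-domain family, spanned 6.39 to 2020 CPM at D-3 (median 86.8), against 4.64 to 212 CPM when dry (median 21.1). DNAJC12 was above the cow's own dry values at D-3 in 6 of 12 cows.

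Some members were close to absent when dry. CALB1, a cytosolic calcium-binding protein, was the most uneven at D-3: it reached 1951 CPM in cow 8647, 366 in 8713 and 65.6 in 7965, against 10.4 in 8541 and 2.02 in 8564, and was at 0 in 3 cows. Its dry values ran from 0 to 10.8 CPM with a median of 0.103. TECTB, a tectorial membrane protein, reached 151 CPM at D-3, from a lowest value of 0.246, and had a dry median of 0.825 CPM. NOTO, a homeobox gene, spanned 0.0409 to 11.3 CPM at D-3, against 0 to 1.57 CPM when dry. NOTO exceeded the cow's own dry values in 9 of 12 cows, the most of any member, and in 9 of 10 cows without 8513 and 8660. CYP3A5, a cytochrome P450 of a multigene family whose copies can share reads, had a dry median of 0.151 CPM.

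CNGA1 and PKD2L1, which encode ion channels, were at low levels when dry. CNGA1, a cyclic nucleotide-gated channel, spanned 0.123 to 21.1 CPM at D-3, against 0 to 1.65 CPM when dry. PKD2L1 spanned 1.92 to 123 CPM at D-3, against 1.05 to 12.1 CPM when dry, and reached 1 CPM in every dry sample. At D-3, CNGA1 exceeded the cow's own dry values in 7 cows and PKD2L1 in 6.

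Among signaling and stress genes, ADM2, a peptide hormone of the calcitonin family, spanned 0.351 to 35.2 CPM at D-3, against 0.0480 to 4.56 CPM when dry. CHAC1, which breaks down glutathione, spanned 0.156 to 48.2 CPM at D-3, against 0.0511 to 2.91 CPM when dry. DUSP4, which dephosphorylates MAP kinases, was far more abundant, at 11.7 to 740 CPM before dry-off and 8.58 to 129 CPM after it. A further set of members with a symbol (RASEF, GRAMD2, MANSC4, EXTL1, FRMPD3, HHIPL2, SERPINB2, SPTLC3, BHLHA15, GP2, RNASE2 and C2H2orf80) had D-3 maxima of 36.4 CPM (RNASE2) to 1588 CPM (GP2) and dry medians of 0.153 CPM (RNASE2) to 24.4 CPM (HHIPL2). Of the 21 members without a symbol, the locus of ENSBTAG00000011402, described as a phospholipid-transporting ATPase, had the largest of the smallest day-mean differences over the 56 members (3.31 on the log2 scale). It spanned 0.696 to 1194 CPM at D-3, against 0.229 to 64.2 CPM when dry.

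PTHLH encodes parathyroid hormone-related protein, which the lactating gland secretes and which mobilizes calcium from bone. At D-3 it was 285, 411, 515, 561 and 644 CPM in the 5 high cows and 36.3 CPM in cow 8668, with 0.668 to 3.76 CPM in the others. On dry days it ran from 0.393 to 69.3 CPM with a median of 1.87.

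The 3 highest medians at D-3 were those of loci with which no symbol could be paired here. Whether any of them are listed milk protein genes that could not be matched was not examined. The locus of ENSBTAG00000014678 spanned 290 to 197255 CPM at D-3 (median 9045), against 15.7 to 29974 CPM when dry (median 1584). The locus of ENSBTAG00000005005 spanned 10.2 to 238340 CPM at D-3 (median 6353), against 1.90 to 25843 CPM when dry (median 233). The locus of ENSBTAG00000013417 spanned 9.10 to 52726 CPM at D-3 (median 1160), against 1.15 to 10749 CPM when dry (median 98.8). Lower down, a locus described as an acyl-CoA desaturase spanned 34.1 to 9956 CPM at D-3 (median 274). In all 4, D-3 exceeded the cow's own dry values in 6 of 12 cows.

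At the threshold, the members with the smallest qualifying difference were PKD2L1, a cation channel (1.502), SERPINB2, a serine protease inhibitor (1.505), and HHIPL2 (1.51, all log2). Just outside were SDC2, a cell surface proteoglycan (1.49), LOC505183 (1.48) and GCAT, a mitochondrial enzyme of threonine breakdown (1.48). Over all members this smallest difference ran from 1.502 to 3.31 with a median of 1.99. Membership depended on single cows: leaving out 1 cow at a time gave 33 to 76 members, and 31 of the 56 passed in all 12 of these sets. The transcription factor BHLHA15, a regulator of secretory cell architecture, passed in 5 of the 12. SPTLC3, a subunit of the enzyme that starts sphingolipid synthesis, passed in 6, as did PKD2L1, SERPINB2 and HHIPL2. With the median over cows in place of the mean, 46 loci qualified, of which 21 were among the 56.

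Libraries that stood apart touched some of these values. The D14 library of the CL cow 7965 had the lowest median correlation with the other libraries (r = 0.824 over all loci), a summed luminal marker level of 7.58 CPM and the lowest mean of the members in any sample (-0.30). Without it the members were the same 56. In cows 8513 and 8660, both HT, the D14 and D25 libraries deviated from their group means more like the other cow's earlier libraries than like their own: for 8513 at D25 the mean correlation was -0.03 with its own and 0.55 with those of 8660. Day means and HT vs. CL comparisons do not depend on which of these 2 cows a library came from, whereas within-cow counts do.

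The next question was whether treatment moved these genes once the cows were dry. No member passed a false discovery rate (FDR) of 0.05 in HT vs. CL on any of the 5 days by edgeR's quasi-likelihood test, and neither did any of the 14714 loci (0.0% called). DESeq2 called 0 members on every day, gave no adjusted p for 1 to 4 of the 56 on each day, and called 3 loci at D7 and 1 at D25. D7 was the day on which the members leaned most to 1 side: 53 of 56 had a fold change above 0 (HT higher), as did 49.5% of all loci. The median log2 fold change was 1.34 over the members and -0.0025 over all loci.

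At D7, 22 of 56 members had an unadjusted p under 0.05, all with HT higher, where 2.62% of all loci met this with HT higher and 1.95% with HT lower. By DESeq2 the number was 25. The smallest adjusted p of a member was 0.959. The members rise and fall together within a sample, with a median pairwise correlation of 0.69 over the 12 D7 samples, so 22 is not a count of independent results. HT and CL values overlapped at D7 in all 56 members (all loci: 0.0816% separated with HT higher and 0.0612% with CL higher). As the mean log2 CPM of the members, D7 was 0.26, 2.61, 2.97, 3.77, 3.93 and 5.28 in the 6 HT cows and 0.68, 0.80, 0.94, 2.00, 2.89 and 3.05 in the 6 CL cows. Thus 3 HT cows lay above all CL cows, and the lowest value of all was that of an HT cow, 8541.

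**Figure D4:**
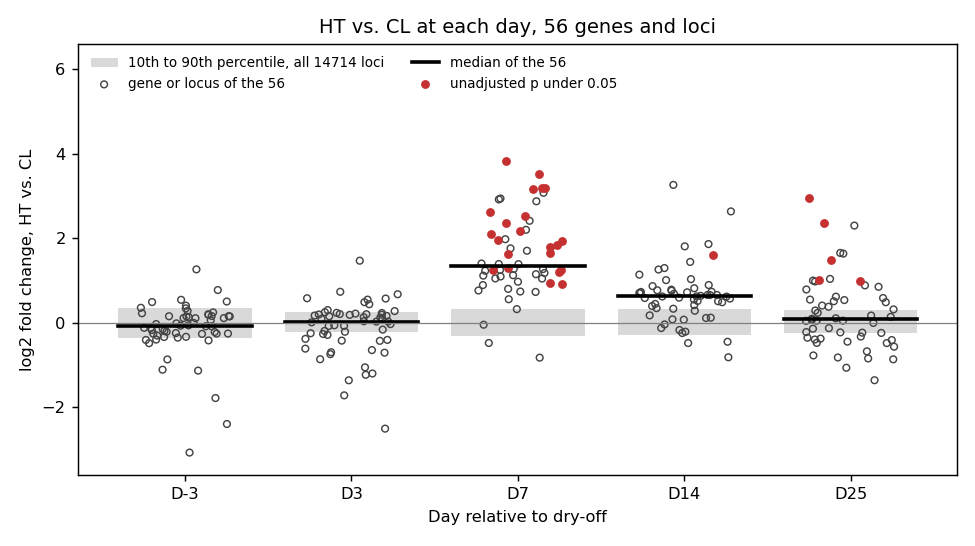
Log2 fold change of HT vs. CL (vertical axis) on each day (horizontal axis) for the 56 genes and loci, with filled red points for an unadjusted p under 0.05, a black line at their median and a gray band from the 10th to the 90th percentile of all 14714 loci. At D7 the median is 1.34 and 22 points are filled, and at D-3 and D3 the medians are -0.08 and 0.03 with no filled point.

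LOC786474 had the smallest p at D7. Its CPM was 3.31, 4.28, 4.52, 4.86, 5.59 and 29.4 in the CL cows and 4.69, 15.7, 20.9, 44.5, 83.0 and 301 in the HT cows. Of the 6 HT cows, 5 were above all CL cows but 8564, and 3 were above 8564 as well. The log2 fold change was 3.18 ± 0.94 (SE, edgeR unadjusted p = 0.0048, adjusted p = 0.959).

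FABP3 at D7 was 5.54 to 40.3 CPM in CL cows (median 12.3) and 6.55 to 389 CPM in HT cows (median 66.9). Its log2 fold change was 2.53 ± 0.81 (edgeR unadjusted p = 0.0080, adjusted p = 0.959). DNAJC12 was 7.51 to 56.5 CPM in CL cows (median 16.1) and 24.9 to 212 CPM in HT cows (median 36.6), a log2 fold change of 1.85 ± 0.64 (edgeR unadjusted p = 0.012). In DNAJC12 the lowest HT cow lay above the median of the CL cows.

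The other listed fat globule and calcium members went the same way with wide overlap. ATP2C2 was 49.0 to 177 CPM in CL cows and 51.6 to 446 CPM in HT cows at D7, a log2 fold change of 1.25 ± 0.47 (edgeR unadjusted p = 0.019). MUC15 was 4.17 to 131 CPM in CL cows and 5.34 to 351 CPM in HT cows, 1.98 ± 0.97 on the log2 scale (edgeR unadjusted p = 0.062). BTN1A1 was 5.28 to 476 CPM in CL cows and 0.524 to 573 CPM in HT cows, 1.13 ± 1.13 (edgeR unadjusted p = 0.34), and 2.17 without the CL cow 8686. Other members with an unadjusted p under 0.05 at D7 were the zymogen granule protein GP2 (2.10 ± 0.78), SPTLC3 (0.91 ± 0.34) and the phosphatase DUSP4 (1.29 ± 0.57, all log2 fold change and SE).

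**Figure D5:**
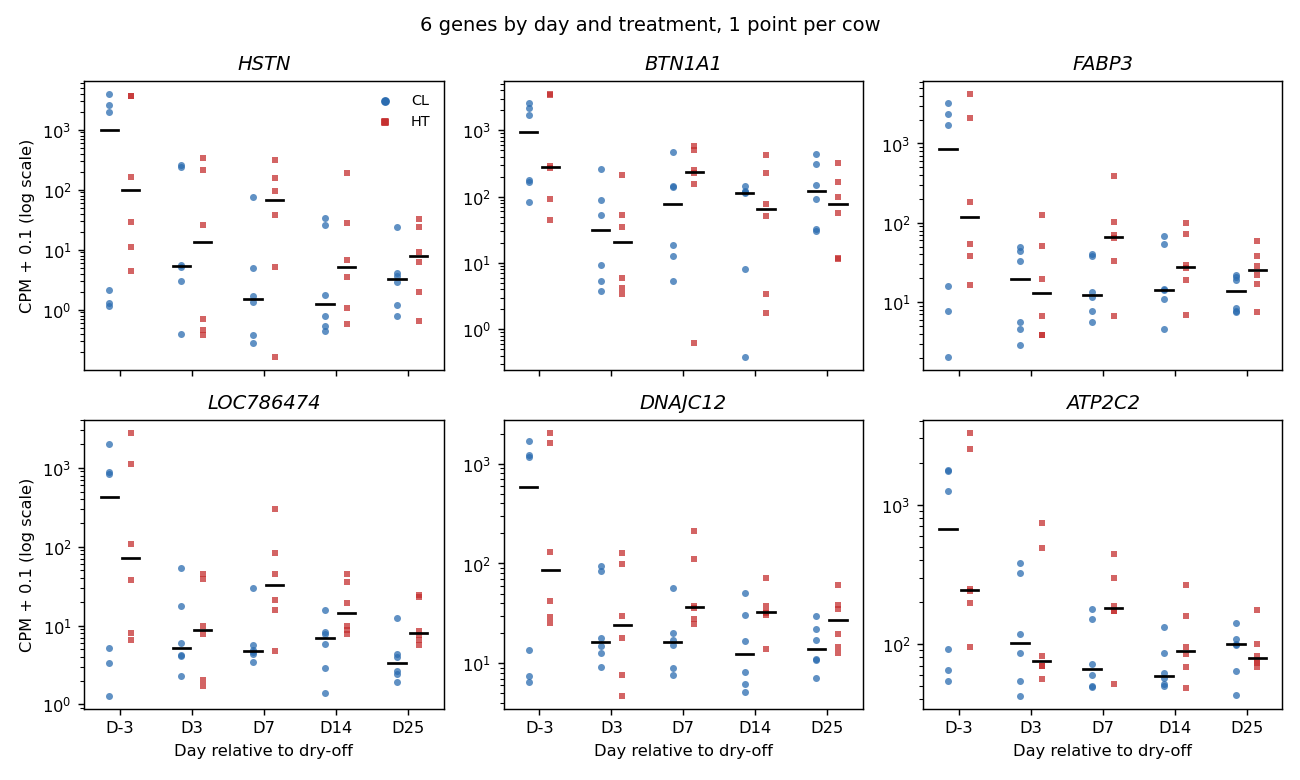
CPM plus 0.1 on a log axis (vertical) by day (horizontal) for HSTN, BTN1A1, FABP3, LOC786474, DNAJC12 and ATP2C2, with 1 point per cow, blue circles for CL, red squares for HT and a black bar at each group's median. At D-3 each gene forms a high and a low set of cows within both treatments, and at D7 the HT medians (66.9 CPM for FABP3) lie above the CL medians (12.3 CPM) while the points overlap.

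Cow 8513 (HT) weighed most on this count. At D7 it held the highest of the 48 dry values for 30 of the 56 members, and CSN1S1, CSN2 and LALBA took 14.5% of its counts, against 0.00669 to 4.24% in the other 11 cows at D7. Without cow 8513 the log2 fold change at D7 was 1.96 for LOC786474, 1.52 for FABP3, 1.18 for DNAJC12, 1.18 for GP2 and 0.65 for DUSP4. Without it, 5 members had an unadjusted p under 0.05 with HT higher and 1 with HT lower, and the median log2 fold change was 0.90. Over all the sets with 1 cow left out, the number with HT higher ran from 5 to 33, the latter without the CL cow 8686. At D7 the summed luminal markers were 645 to 1283 CPM in CL cows and 994 to 1545 CPM in HT cows, myoepithelial markers (4 of 7 matched) 736 to 1222 and 982 to 1437 CPM, and adipocyte markers 41.0 to 219 and 96.4 to 255 CPM. The part of these differences in tissue make-up in the D7 values was not tested.

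On the other days the medians of the members were nearer to 0. At D-3, before treatment, 0 members had an unadjusted p under 0.05 (all loci 1.12% with HT higher and 0.904% with HT lower), 23 of 56 had a fold change above 0, and the median was -0.08 (-0.84 to 0.41 with 1 cow left out). The 5 high cows at D-3 were 3 of the 6 CL and 2 of the 6 HT cows. At D3 it was again 0 (all loci 0.428% and 0.231%), with 30 of 56 above 0 and a median of 0.03 (-0.49 to 0.27 with 1 cow left out). The 3 members with a symbol and the smallest p at D3 were NOTO (-1.72 ± 1.04), CALB1 (-2.51 ± 1.56) and EXTL1, an exostosin-like glycosyltransferase (0.73 ± 0.56), with edgeR unadjusted p-values of 0.12, 0.13 and 0.21. The CALB1 value turned on the CL cow 8647 (10.8 CPM): without it the log2 fold change was 1.17. That of EXTL1 was 0.13 without the HT cow 8668 and 1.10 without the CL cow 8686, and that of NOTO was -0.80 without 8686.

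At D14, 48 of 56 were above 0 and the median was 0.62, with 1 unadjusted p under 0.05 (HT higher, all loci 0.782%, and 0.897% with HT lower). That 1 was LOC786474, at 1.31 to 15.7 CPM in CL cows and 7.60 to 44.5 CPM in HT cows (1.60 ± 0.60, edgeR unadjusted p = 0.019). CYP3A5 (1.26 ± 0.64) and ATP2C2 (0.72 ± 0.40) followed. Without cow 8513 these were 0.49 and 0.32, 33 of 56 members were above 0 and the median was 0.16, with 1 unadjusted p under 0.05 for HT higher and 2 for HT lower. Without the CL cow 8603, 12 members had an unadjusted p under 0.05 with HT higher, and without the HT cow 8668 there were 0. Leaving out the D14 library of the CL cow 7965, which stood apart, gave 44 of 56 above 0 and a median of 0.42.

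At D25 the median was 0.10, 33 of 56 were above 0, and 5 had an unadjusted p under 0.05, all with HT higher (all loci 1.08%, and 1.18% with HT lower). Without the HT cow 8314 the median was -0.14, 26 members were above 0, and 4 each way had an unadjusted p under 0.05. The median was also under 0 without 8603 (-0.0069) or 8668 (-0.07), and the number with HT higher ran from 2 without 8668 to 11 without 8564.

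LOC786474 was the first of these again, at 1.85 to 12.3 CPM in CL cows and 5.63 to 24.6 CPM in HT cows, with a log2 fold change of 1.48 ± 0.52 (edgeR unadjusted p = 0.014, adjusted p = 0.997). The groups overlapped through the CL cow 8564 (12.3 CPM), and the other 5 CL cows were under every HT cow. FRMPD3, a scaffold protein, was 0.0815 to 0.788 CPM in CL and 0.295 to 8.07 CPM in HT cows (2.36 ± 0.87, edgeR unadjusted p = 0.018), and its log2 fold change was 0.78 without cow 8314. GP2 was 5.05 to 24.9 CPM in CL and 11.4 to 47.4 CPM in HT cows (1.01 ± 0.39, edgeR unadjusted p = 0.022). Whether the fold changes at D7 differed from those on the other days was not tested.

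Within the dry period, the rule capped the day means but not their order. The mean log2 CPM over members was 2.09 ± 1.30 at D3 and 2.43 ± 1.54 at D7, then 1.93 ± 1.20 at D14 and 2.14 ± 0.68 at D25 (SD, n = 12 cows). These differences were smaller than the spread between cows. The lowest dry-day mean fell on D3 for 20 members, on D7 for 1, on D14 for 20 and on D25 for 15.

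In D7 vs. D3, 1 member was upregulated at FDR 0.05 and none downregulated (all loci 0.625% up and 2.3% down), and 12 of 56 had an unadjusted p under 0.05, all higher at D7 (all loci 6.35%). That number was 5 with a cow block, 6 without cow 8513, 6 without 8660 and 5 without both. The member called was RNASE2, a secreted ribonuclease of granulocytes. Its CPM at D3 was 0 to 0.983 with a median of 0.0393, and at D7 it was 0 to 18.7 with a median of 0.406. At D7 the highest values were 18.7 in cow 8660 and 14.4 in 8314, both HT, and the remaining 10 cows were at or under 2.71, so the days overlapped. RNASE2 rose in 7 of the 10 cows in which its values differed between the days, with a log2 fold change of 3.97 ± 1.13 (edgeR adjusted p = 0.039). With a cow block the adjusted p was 0.13, and without cow 8660 it was 0.14. The call was also lost without any one of cows 8060, 8314, 8541, 8564, 8603, 8647 and 8713.

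In D14 vs. D7, 54 of 56 members had a fold change under 0, with a median of -0.74 (all loci 51.8% above 0, median 0.0049). The members move together within a sample, so 54 is not a count of independent results. No member and no locus was called by edgeR (0.0%), and 2 members had an unadjusted p under 0.05 (all loci lower 0.136%). The lower of these p-values was that of PTHLH (-2.23 ± 0.82, edgeR unadjusted p = 0.0082), whose D7 mean held the value of 69.3 CPM in cow 8513. Its log2 fold change was -0.97 with a cow block, -0.61 without cow 8513 and -0.57 without 8513 and 8660, and with the block 0 members had an unadjusted p under 0.05. In D25 vs. D14 no member was called by edgeR (all loci 0.0% up and 0.0612% down), and 0 had an unadjusted p under 0.05 (all loci 0.401% up and 3.23% down). The median was 0.03.

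In D25 vs. D3, 1 member was downregulated and none upregulated (all loci 4.62% down and 1.4% up), and 5 members each way had an unadjusted p under 0.05 (all loci 9.47% up and 12.5% down), or 5 in all with a cow block. The member called was the locus of ENSBTAG00000013417, with which no symbol could be paired here. Its CPM at D3 was 10749, 9793, 7316 and 6460 in cows 8564, 8541, 8713 and 8647, 4 of the 5 cows that were high at D-3, and 2.09 to 446 in the other 8. At D25 it was 14.3 to 741 CPM in all 12. The log2 fold change was -4.47 ± 1.31 (edgeR adjusted p = 0.029), it was lower at D25 in 7 of 12 cows, and a cow block raised the adjusted p to 0.16. The call was lost without any one of cows 8541, 8564, 8647 and 8713.

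PTHLH and C2H2orf80, singled out after their values were seen, were the most even across cows from D3 to D25. PTHLH was lower at D25 in 11 of 12 cows (9 of 10 without 8513 and 8660), from 0.656 to 16.0 CPM at D3 and from 0.393 to 3.47 CPM at D25. Its log2 fold change was -2.10 ± 0.83 (edgeR adjusted p = 0.12), which did not pass the threshold, while DESeq2 called it (-2.12). C2H2orf80, an open reading frame without a role given here, was higher at D25 in 11 of 12 cows, at 1.48 to 7.58 CPM at D3 and 1.51 to 20.1 CPM at D25 (log2 fold change 1.10 ± 0.61, edgeR adjusted p = 0.27).

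How tightly the members moved together changed with the day. The median pairwise Pearson correlation between members over the 12 samples of a day was 0.92 before dry-off. It was 0.61 at D3 and 0.69 at D7, then 0.49 at D14 and 0.28 at D25. These are descriptions: the pairs share libraries and their normalization, and the D-3 values took part in choosing the members. The rule used day means and did not fix the pattern over cows, and single pairs at D-3 ran from 0.26 to 0.998.

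Lists of lactation pathways gave the setting, after leaving out the members. Genes set aside by name stayed in: CSN1S1, CSN2, LALBA, CD36, GPAM, LPL and SCD met the same thresholds. Their fall was set by the rule and is no separate result. The lists are counted in D3 vs. D-3, a contrast the rule used, in which 52 of the 56 members were downregulated at FDR 0.05 (all loci 9.04%). Because symbols favored loci that changed, the counts do not estimate shares of a pathway. In fatty acid and triglyceride synthesis, 12 of 13 matched genes were downregulated and none upregulated, from SREBF1 (-1.06) to LPL (-4.92 on the log2 scale). In cholesterol synthesis the counts were 14 down and 0 up of 16, with smaller changes (median -1.20). In lactose synthesis 6 were down and 1 was up of 7, the latter being PGM1, a phosphoglucomutase (0.41). Serine, glycine and one-carbon genes had 6 down and 0 up of 7, with PSAT1 at -2.33. Of the 3 milk fat globule genes outside the members, 3 were down. The calcium and secretion list had 2 down of 3, among them the calcium channel ORAI1 (-2.13), and all 3 milk protein genes were down. The prolactin and STAT5 list had 2 down (CISH and STAT5B) and 1 up (IGF1R) of 4.

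The same lists in HT vs. CL at D7 showed how far the lean of the members was shared. No gene of any list passed FDR 0.05 in edgeR. Fatty acid and triglyceride genes had a median log2 fold change of 0.81, with 5 of 13 at an unadjusted p under 0.05 and HT higher (LPL, SCD, FADS1, ACSS2 and SREBF1). The 3 milk protein genes had a median of 2.73, with none under 0.05. The medians were 0.13 for cholesterol synthesis (3 of 16 under 0.05), 0.36 for lactose synthesis (1 of 7), 0.25 for serine and glycine (0 of 7), 0.82 for the milk fat globule (1 of 3), 0.59 for calcium and secretion (1 of 3) and 0.03 for prolactin and STAT5 (1 of 4). All of these with an unadjusted p under 0.05 had HT higher.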

How the data were processed

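Per the labels, mammary biopsies of 12 Holstein cows (6 HT, 6 CL) were taken on 5 days, and each table of counts deposited by the authors holds whole numbers of uniquely mapped reads per assembled locus, not normalized. According to the methods and the submitters' processing notes, single-ended reads from an unstranded kit were trimmed with Trim Galore 0.4.1, aligned with TopHat2 2.0.13 (the notes give UMD3.1 and the methods bosTau7), assembled with Cufflinks 2.2.1 and counted with HTSeq. Reads of overlapping or antisense genes therefore cannot be told apart, and 742 of 25223 loci join several ENSEMBL genes.

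Totals were 20525083 to 26183990 counts per sample (median 22637562), and a locus was kept when 6 or more samples reached 1 CPM (14714 loci). CPM and log2 CPM (prior count 2) used trimmed mean of M-values (TMM) factors from edgeR 4.0.16 in R 4.3.3. HT vs. CL was fitted within each day, and days were compared over all 60 samples without a cow term, by quasi-likelihood tests with Benjamini-Hochberg adjustment over all loci. DESeq2 1.42.0, other scaling, no filter and 1 cow left out were alternatives, and another used the cow as a block. Cow numbers pair samples because they name the animal, and deviations from group means correlated at 0.29 on average within a cow and -0.06 between cows of a treatment. The code was tested on simulated data.

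The members, the pathway and marker lists and the tests were chosen with earlier results of these data known. Genes were named by rule: the 10 largest falls with a symbol, listed pathway members, the threshold's neighbors, the 3 smallest p-values with a symbol per dry day in HT vs. CL, members called between dry days, and the 5 highest on dry days among those with at least 10 CPM on each. Genes named beyond it illustrate counts or roles and were chosen after their values were seen. Symbols were paired through identifiers in the study's supplementary tables, held in part. Those tables also hold the authors' fold changes and p-values, which were not used. Results for some members are not reported here.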

Additional observations from a re-analysis of the deposited data

Results flagged for a closer look

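Within the groups of 6 cows, 3 values of the genes tested for treatment stood apart from the other 5 by more than Dixon's 95% limit (0.625 of the range for 6 samples), which chance exceeds in about 1 in 20 groups. They were CALB1 in the CL cow 8647 at D3 (10.8 CPM), LOC786474 in the CL cow 8564 at D7 (29.4 CPM) and FRMPD3 in the HT cow 8314 at D25 (8.07 CPM). The mean over the 56 members exceeded that limit in none of the 10 groups.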

How the results depend on the processing

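Scaling by library size alone gave 25 members, all among the 56, a difference threshold of 1 gave 150 and of 2 gave 28. Library-size scaling also called 6038 loci in D25 vs. D-3 in place of 1930 and shifted the median log2 fold change of all loci to 0.48 there, 0.35 in D3 vs. D-3, 0.15 in D25 vs. D3 and -0.14 in HT vs. CL at D7, where the members' median was then 1.13. In D7 vs. D3 and D25 vs. D3 it called 0 members, DESeq2 called 4 and 4, and without cows 8513 and 8660 the first had 0. With the cow as a replicate block, 0 members were called in either, 3003 loci were called in D25 vs. D-3, and all loci called in D7 vs. D3 rose from 92 up and 338 down to 308 and 573. The block also moved the members downregulated from 52 to 53 in D3 vs. D-3 and from 52 to 55 in D25 vs. D-3. No member was called in HT vs. CL on any day, in D14 vs. D7 or in D25 vs. D14 under any alternative run. The cause of these changes was not tested.

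Leaving out 1 cow at a time gave 33 to 76 members, 6 to 33 members under an unadjusted p of 0.05 in HT vs. CL at D7, 0 to 2 members called in D7 vs. D3 and in D25 vs. D3, 1230 to 2557 loci in D3 vs. D-3 and 869 to 2154 in D25 vs. D-3. The call of RNASE2 was lost without any one of cows 8060, 8314, 8541, 8564, 8603, 8647, 8660 and 8713 (log2 fold change 3.13 to 4.01), and that of the ENSBTAG00000013417 locus without 8541, 8564, 8647 or 8713. The log2 fold change of CALB1 in HT vs. CL at D3 ran from -4.33 to 1.17 and changed sign without cow 8647. Leaving out the D14 library of cow 7965, chosen after seeing the data, left the number of members and of members called between dry days as it was, and moved those with an unadjusted p under 0.05 in D14 vs. D7 from 2 to 1. Before the normalization factor is applied, 1 CPM stands for 20.5 to 26.2 counts of a locus in a library. The factors ran from 0.3 to 1.21, and a lower factor means fewer counts at the same CPM. Differences between samples of members under 1 CPM therefore rest on few reads.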
